A study of Mus musculus with 26 samples.

Results

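The 10 genes described here are white adipocyte genes measured in mouse mesenteric arteries: Adipoq, Lep, Retn, Cfd, Plin1, Cidec, Lpl, Pnpla2, Fabp4 and Pck1. They were taken by symbol from the table of normalized counts, in which all 10 were found among 21031 genes. All 10 also passed the filter on low counts in every comparison. The arteries came from male mice aged 8 weeks. RNA was read in 26 libraries of 8 groups, with total counts of 14.9 to 23.6 M (mega-counts) per library. The knockout line had 3 libraries labelled Global WT (genotype WT) and 3 labelled Global Panx1 KO (genotype Panx1 KO). The other lines carried a change at one residue of pannexin 1, a channel of the plasma membrane that releases ATP. They had 3 Y198F controls (Y198F-/-) and 3 Y198F mutants (Y198F+/+), 4 S205A controls (S205A-/-) and 4 S205A mutants (S205A+/+), and 3 Y308F controls (Y308F-/-) and 3 Y308F mutants (Y308F+/+). Controls were littermates or wild-type mice, and no strain or substrain is named. The design text states 3 vascular trees for each genotype, although both S205A groups hold 4 libraries, and does not say whether a tree is 1 animal. The p-values therefore measure the spread between these samples.

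White adipocytes store triglyceride in a single large droplet and surround the mesenteric arteries as perivascular fat. Droplet proteins guard the store, lipases release or take up fatty acids, and binding proteins carry them within the cell. Adipocytes also secrete hormones, the adipokines, that act on the vessel wall, the liver and the brain. Smooth muscle and endothelium make up the vessel itself. In a bulk sample, fewer adipocytes and less RNA per adipocyte cannot be told apart.

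A few facts of the series bear on these genes. In 9 libraries the library name carries a number that begins with 22, and these are called the 22 series: every Y198F mutant, the S205A controls other than control 4, and the S205A mutants other than mutant 1. The labels do not explain this number. The Y198F mutants and their controls differ completely in it, so series and genotype cannot be told apart in that comparison. Panx1 was at 10.9 to 25.4 normalized counts in the knockout libraries. The library labelled S205A control 1 lay in that range, at 15.4, while the other 22 libraries lay between 28.9 and 98.4. Smooth muscle markers were the most abundant of the cell type lists, with summed normalized counts of 425844 to 864732. The 10 adipocyte genes summed to 5773 to 87417, or 0.0307% to 0.460% of a library's normalized counts.

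The main result was a wide spread between single libraries and no difference between genotypes past the test. In edgeR's quasi-likelihood test with an adjusted p threshold of 0.05, 0 of 10 members passed in the Panx1 knockout, where 0.0309% of all genes did. In the Y198F comparison 0 of 10 members passed, against 15% of all genes. In the S205A comparison 0 of 10 members and 0% of all genes passed, and in the Y308F comparison likewise 0 of 10 and 0%. At an unadjusted p under 0.05 in edgeR, 0 members stood in the knockout (11.2% of all genes) and 1, Pnpla2, in Y198F (29.1% of all genes). None stood in S205A (2.87%) or Y308F (4.4%). In this fit, without the replicate number as a block, the members' share was below that of all genes in each comparison. With that block, which the libraries' deviations did not bear out as a pairing, 7 of 10 members had an unadjusted p under 0.05 in the knockout, against 11.6% of all genes, and 0 passed the adjusted threshold. The other shares with the block were 1 of 10 in Y198F (26.9% of all genes), 0 of 10 in S205A (2.27%) and 0 of 10 in Y308F (3.69%). DESeq2 called 0 members in the knockout (0.904% of all genes), 1 in Y198F (14.3%), again Pnpla2, and 0 in S205A (0.314%) and Y308F (0%). Lep had no DESeq2 adjusted p in the knockout. A test across all 8 groups called 0 of 10 members with edgeR and 7.1% of all genes, with 2 members, Lep and Pnpla2, at an unadjusted p under 0.05, as were 22.3% of all genes. DESeq2's likelihood ratio test of the groups called the same 2 members, Lep (adjusted p = 0.0324) and Pnpla2 (0.00636), and 14.4% of all genes. Once the fit allowed for library series, the edgeR test of the groups called 8 genes in place of 1328, and 0 members.

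Adipoq encodes adiponectin, the most abundant adipokine, and is made almost only by adipocytes. The gene lies at chr16:22964106-22976810 on the plus strand of GRCm39. It had 920, 765 and 5023 normalized counts in WT 1, 2 and 3 and 619, 335 and 1632 in the knockouts. The Y198F controls had 665, 893 and 952, and the Y198F mutants 284, 870 and 4820. WT 3 and Y198F 3 stood far above the other libraries of their groups, and in both comparisons the mutant and control values overlapped. The S205A controls had 396, 197, 928 and 1609, and the S205A mutants 512, 1225, 446 and 61.5. The Y308F controls had 1528, 3908 and 165, and the Y308F mutants 1916, 1217 and 619. The lowest library of all was S205A 4, and Y308F control 2 was the third highest. The ratio of the highest to the lowest library was 81.7.

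Lep encodes leptin, the adipokine that signals fat stores to the brain. It lies at chr6:29060216-29073877 on the plus strand of GRCm39. WT 1, 2 and 3 had 87.3, 104 and 2326 normalized counts, and the knockouts 62.4, 21.2 and 108. In the Y198F line the controls had 72.5, 168 and 267 and the mutants 49.8, 75.6 and 418. The S205A controls had 29.8, 39.6, 212 and 68.1, and the mutants 27.0, 78.3, 56.4 and 1.21, the last from 1 raw count. Leptin in WT 3 stood further above its neighbours than any other member did there, while the other WT libraries lay inside the knockout range. The Y308F controls had 109, 471 and 27.5 and the mutants 140, 487 and 212. Per kilobase of exon, Lep was the lowest member, with a median of 24.7 normalized counts per kilobase.

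Retn, which encodes resistin, and Cfd, which encodes the complement protease adipsin, had their highest and lowest levels in the same libraries as Adipoq. Retn ran from 28.9 normalized counts in S205A 4 to 2342 in WT 3, with a median of 384. Cfd ran from 265 to 18194 in the same 2 libraries, with a median of 2821. Cfd was the highest member per kilobase of exon, at a median of 2926 normalized counts per kilobase. The Retn gene overlaps a processed pseudogene on the other strand, and the strand setting of the counting is not stated.

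Plin1 and Cidec encode proteins of the lipid droplet surface: perilipin 1 shields the droplet from lipases, and Cidec promotes large single droplets. Plin1 ran from 72.3 normalized counts in S205A 4 to 5605 in WT 3, a 77.5-fold range with a median of 799. Cidec ran from 75.9 to 4188 in the same libraries, a 55.2-fold range with a median of 680. Fabp4 encodes the fatty acid carrier of adipocytes, which capillary endothelium also makes. It ran from 512 to 18043 normalized counts, a 35.2-fold range. Lpl, the lipase that frees fatty acids from circulating triglyceride, ran from 1023 to 24843, a 24.3-fold range. WT 3 was the highest library and S205A 4 the lowest for both.

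**Figure D1:**
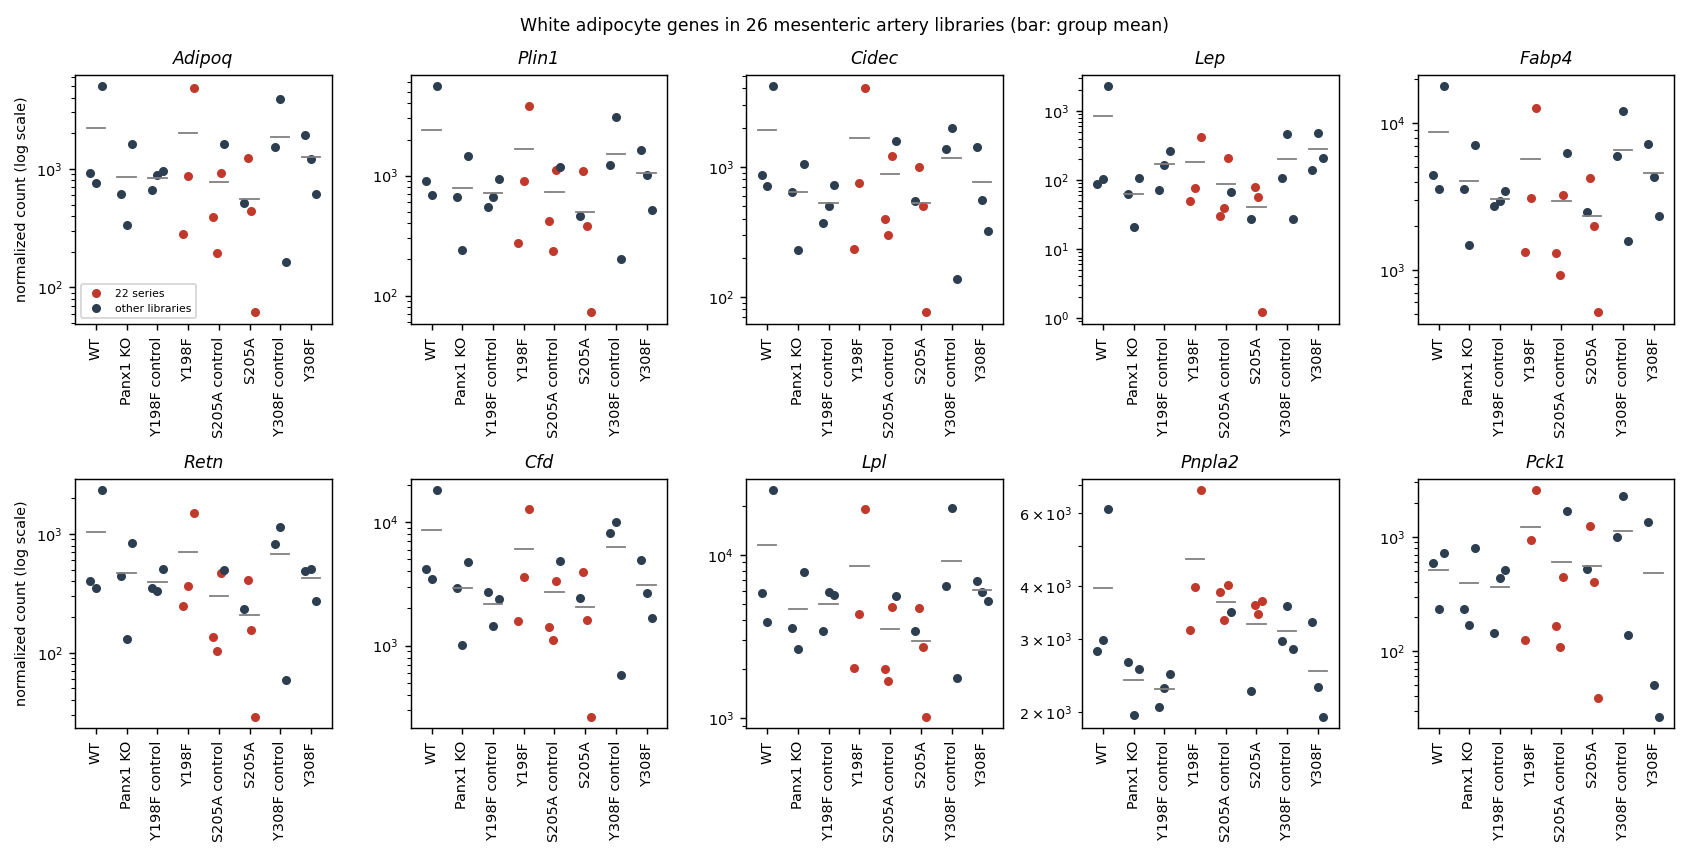
Normalized counts (log axis) of the 10 members in the 8 groups, 1 point per library and a bar at each group mean, with the 22 series in red. WT 3, Y198F 3 and Y308F control 2 stand high for 9 members each, and Pnpla2 spans 3.48-fold on its own narrower axis.

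Pck1 encodes the cytosolic carboxykinase that makes the glycerol backbone for triglyceride when glucose is scarce. It lies at chr2:172994744-173001066 on the plus strand of GRCm39. WT libraries had 590, 235 and 729 normalized counts and knockouts 232, 168 and 795. Y198F controls had 144, 439 and 508 and Y198F mutants 124, 937 and 2570. S205A controls had 165, 109, 445 and 1691, and S205A mutants 519, 1245, 404 and 38.6. The order of libraries differed from that of Adipoq: WT 3, the highest for 8 members, was not among the top 3 for Pck1. The Y308F controls had 992, 2282 and 138, and the mutants 1359, 50.5 and 26.5. Y308F 2 and Y308F 3 thus had very little Pck1 for their Adipoq. Their Pck1 to Adipoq ratios were 0.0415 and 0.0429, against a median of 0.533 over all libraries and 0.709 in Y308F 1.

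Pnpla2 encodes adipose triglyceride lipase, which starts the breakdown of stored fat and is also used by muscle. It lies at chr7:141034404-141040656 on the plus strand of GRCm39. WT libraries had 2808, 2975 and 6124 normalized counts, and knockouts 2639, 1977 and 2545. Y198F controls had 2059, 2292 and 2472, and Y198F mutants 3155, 3990 and 6797. Every knockout lay below every WT library, and every Y198F mutant above every Y198F control. Of all genes, 17% had groups apart in the knockout comparison and 30.6% in Y198F. The S205A controls had 3877, 3325, 4022 and 3477, and the mutants 2252, 3613, 3436 and 3694. The Y308F controls had 2955, 3599 and 2834, and the mutants 3284, 2306 and 1953. In S205A 4, where 8 other members were at their lowest, Pnpla2 was above the median of 3065. The whole range over 26 libraries was 3.48-fold, against 24.3-fold or more for the other 9 members.

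The spread within groups set Pnpla2 apart as well. Its pooled SD within groups was 0.36 on the log2 CPM scale, close to the median of all genes, 0.35. The other 9 members had SDs of 1.11 for Lpl to 1.90 for Pck1. Those 9 lay at the 94.4th to 99.9th percentile of 18715 genes, and Pnpla2 at the 51.2nd. When the 8 groups were ranked by their mean for each member, all 70 neighbouring pairs overlapped, and the lowest p of an exact two-sided permutation test was 0.3. Neighbours in such a ranking are the closest groups, and 98.7% of such pairs overlapped over all genes, close to the members' share. Groups further apart in it can separate, as the Y198F mutants and controls did for Pnpla2. For Adipoq the order of means ran from WT (2236 ± 2415, SD, n = 3) through Y198F (1991 ± 2467, SD, n = 3) and Y308F control (1867 ± 1894, SD, n = 3) to S205A (561 ± 485, SD, n = 4).

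In the Panx1 knockout, all 10 members had lower fitted levels than in WT, with none past the threshold. The median log2 fold change of the members was -1.33, against 0.01 over all genes tested. Adipoq was at -1.37 in log2 terms (SE 1.08, edgeR adjusted p = 0.696) and Lep at -3.71 (SE 1.74, adjusted p = 0.528). Without WT 3 the values were 0.05 for Adipoq, 0.03 for Fabp4 and 0.34 for Retn, and that of Lep was -0.57. The sign thus turned for Adipoq, Fabp4 and Retn. Plin1 (-0.0012), Lpl (-0.03) and Pck1 (-0.03) were close to 0 without it, and Cidec (-0.28), Cfd (-0.36), Lep and Pnpla2 stayed lower by smaller amounts. WT 3 also had the second highest macrophage marker sum, 1565 normalized counts against a median of 671, and the highest sum of the pancreas list, 103 against a median of 28.4. Of the 5 pancreas genes, Cela1 made up that whole value, and the others had 10 raw counts or fewer in every library. The vessel marker sums of WT 3 were low, with endothelium at 62315 (rank 25 of 26) and smooth muscle at 432100 (rank 24). Their part in the result was not tested.

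Pnpla2 was the only member whose groups did not overlap in that comparison, and like the others it did not pass. Its level was 2387 ± 359 (SD, n = 3) normalized counts in the knockouts and 3969 ± 1868 (SD, n = 3) in WT, with no overlap, as in 17% of all genes. An exact permutation test, two-sided, gave p = 0.1, below which 3 against 3 cannot go. In log2 terms the difference was -0.72 (SE 0.33, edgeR adjusted p = 0.483), and -0.26 without WT 3, where the adjusted p was 0.484. The authors' deposited table gives -0.73 with an adjusted p of 0.386. Lep had the lowest adjusted p of any member in the authors' deposited tables, 0.238, in this comparison.

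In the Y198F mutants, all 10 members had higher fitted levels than in the Y198F controls. The median log2 fold change of the members was 1.13, and that of all genes tested was -0.0028. It was 1.26 for Adipoq (SE 1.14, edgeR adjusted p = 0.556), 1.67 for Cidec (SE 1.18, adjusted p = 0.446) and 1.75 for Pck1 (SE 1.21, adjusted p = 0.439). Without Y198F 3, Adipoq was at -0.52, Lep at -1.42, Lpl at -0.64 and Fabp4 at -0.45, so the direction reversed. Plin1 (-0.27), Cidec (-0.09) and Retn (-0.35) also reversed. Cfd (0.26), Pck1 (0.56) and Pnpla2 (0.66) kept theirs. Y198F 3 also had the highest mesothelial marker sum, 777 normalized counts against a median of 25.6, the second highest Cela1-led pancreas sum, 70.6, and a macrophage sum of 941. The fibroblast marker sum was lower in every Y198F mutant, 36915 to 56113, than in every control, 57689 to 75529. The endothelial sum was higher in every mutant, 100913 to 109144, than in every control, 75816 to 95727. Of all genes, 30.6% had groups apart in this comparison. Single markers differed within both lists. Log2 fold changes ran from -1.27 (Dpt) to 0.19 (Pi16) for fibroblasts. For endothelium they ran from -0.22 (Tek) to 0.74 (Eng), with Pecam1 at 0.006. The part of these cells in the result was not tested.

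Pnpla2 was the member nearest to the threshold in the Y198F comparison. Its mean was 4647 ± 1908 (SD, n = 3) normalized counts in the mutants and 2274 ± 207 (SD, n = 3) in the controls. It was the one member whose groups did not overlap, where 30.6% of all genes did not, with an exact two-sided permutation p of 0.1. The fitted log2 difference was 1.04 (SE 0.29, edgeR adjusted p = 0.0625). It passed with DESeq2 (1.03, adjusted p = 0.0290), without a filter (1.03, 0.00490), with all 8 groups in one edgeR fit (1.05, 0.0375), and without Y198F 1 (1.25, 0.0104) or Y198F 3 (0.66, 0.0141). With DESeq2, 14.3% of all genes passed as well. The Y198F mutants and controls also differ in library series. Pnpla2 had a median of 3694 normalized counts in the 22 series, which holds every Y198F mutant. The median was 2639 in the other libraries, which hold every Y198F control. Within the S205A groups the 22 series was higher by 0.38 in log2 terms (SE 0.15, edgeR adjusted p = 0.183). Outside the series these groups hold only S205A 1, at 2252, and S205A control 4, at 3477. The latter lay within the range of the other S205A controls, 3325 to 4022.

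Against the 3 S205A controls of the 22 series, the log2 fold change of Pnpla2 in Y198F was 0.32 (SE 0.28, edgeR adjusted p = 1.00). That contrast called 0 genes of any kind, and a fit of all 8 groups with the series as a term also called 0. The controls of that contrast included S205A control 1, with Panx1 in the knockout range (15.4). S205A controls 1 and 2 also had the lowest and highest endothelial sums of all libraries, 24720 and 199476. With controls so unlike each other, the 0 calls do not tell series from genotype. The other 9 members had log2 fold changes of 0.96 (Lep) to 2.34 (Pck1) against these controls, each with an adjusted p of 1.00. The authors' deposited table for Y198F gives 0.34 for Pnpla2. For the 10 members that table differs by at most 0.000124 from the log2 ratio of the Y198F mean to the S205A control mean. The ratio to the Y198F control mean, by contrast, was 1.03 in log2 terms for Pnpla2.

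In the S205A mutants, all 10 members had slightly lower fitted levels than in their controls, from -0.12 for Pck1 (SE 1.00) to -1.09 for Lep (SE 0.91), all with an edgeR adjusted p of 1.00. The median was -0.42, and that of all genes was -0.01. No member had groups apart, against 1.74% of all genes. Without S205A control 4, Adipoq (0.15), Fabp4 (0.34), Cfd (0.08), Lpl (0.08) and Pck1 (1.20) turned positive, and without S205A 4, Fabp4 (0.0036), Lpl (0.05) and Pck1 (0.27) did. Without S205A control 1, whose Panx1 level lay in the knockout range, all 10 stayed negative, from -0.14 for Pnpla2 to -1.38 for Lep. The fibroblast marker sum was higher in every S205A mutant, 39942 to 112986 normalized counts, than in every control, 27810 to 38256. The log2 fold changes of its markers ran from -0.56 (Dpp4) to 1.82 (Lum). S205A control 1 had the lowest endothelial sum of all libraries, 24720, and S205A control 2 the highest, 199476. The macrophage sum ran from 223 to 536 in the controls and from 135 to 966 in the mutants. The part of these cells in the result was not tested.

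In the Y308F mutants, 9 of 10 members had lower fitted levels than in their controls, and Lep had a higher one at 0.47 (SE 1.04, edgeR adjusted p = 0.984). The median of the members was -0.59 against -0.03 for all genes. Adipoq had -0.58 (SE 1.13, adjusted p = 0.980), Cfd -1.02 (SE 1.06, adjusted p = 0.957) and Pck1 -1.25 (SE 1.79, adjusted p = 0.972). No member had groups apart, while 10.4% of all genes did. Without Y308F control 2, Adipoq was at 0.56, Plin1 at 0.57, Lpl at 0.56 and Fabp4 at 0.30, while Lep was at 2.02. Pck1 was at -4.88 without Y308F 1, the one mutant library with a high level. Y308F control 2 also had the third highest sums of mesothelial (445 normalized counts), macrophage (1310) and pancreas markers (66.4). Y308F control 1 had the second highest mesothelial (586) and endothelial (197495) sums and the lowest smooth muscle sum of all libraries (425844). The part of these cells in the result was not tested.

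**Figure D2:**
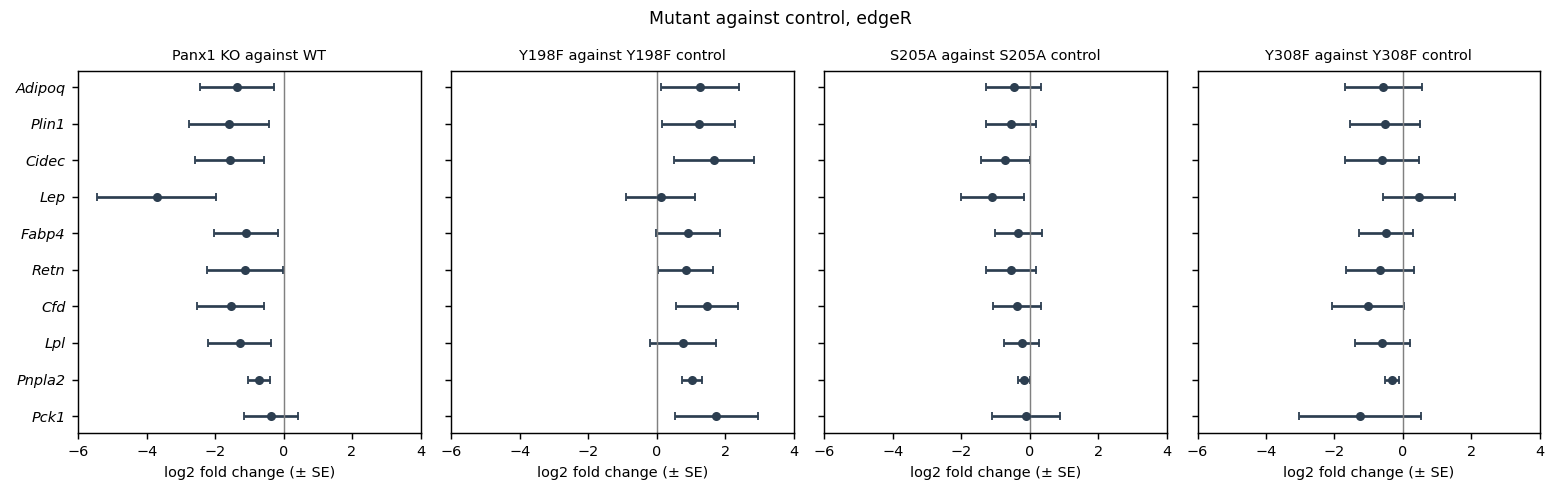
Log2 fold changes (x axis) of the 10 members in the 4 mutant against control comparisons, with bars of 1 SE from edgeR. The Pnpla2 bars are the shortest, 0.33 in the knockout and 0.29 in Y198F, and 0 members pass the threshold in any panel.

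**Figure D3:**
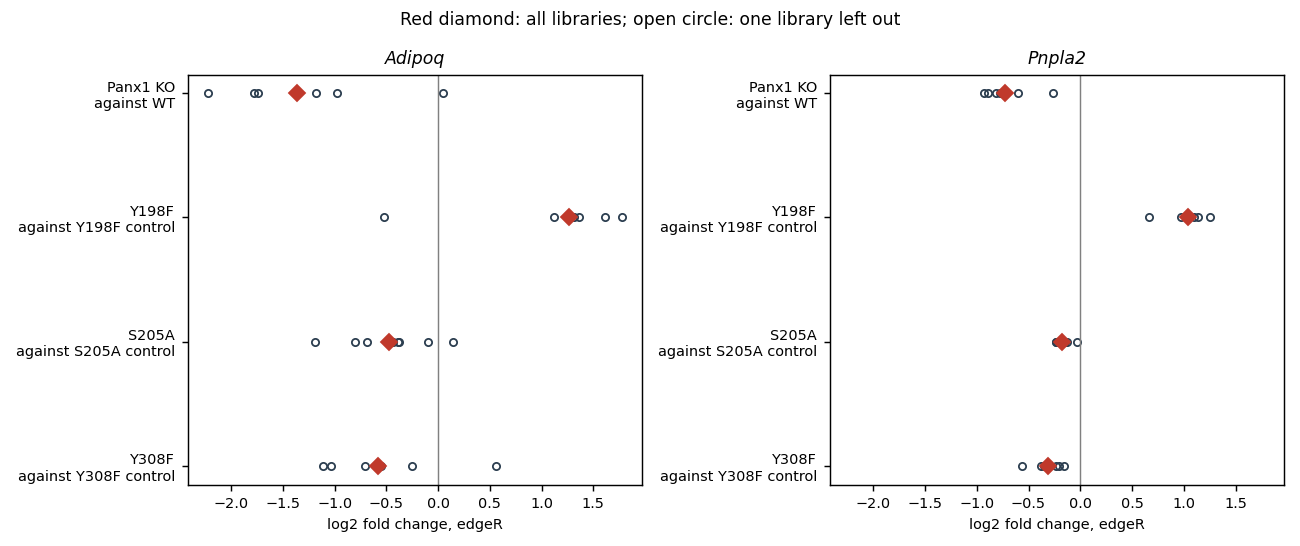
Log2 fold changes (x axis) of Adipoq and Pnpla2 in the 4 comparisons, with all libraries (red diamonds) and with 1 library left out (open circles). The Adipoq circles cross 0 in each comparison, and those of Pnpla2 stay on one side.

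Between the library series, 0 of 10 members passed, against 11.7% of all genes, in a fit with the groups as terms. The median of the members was -0.72 (22 series against the rest), and 2 of 10, Lep and Pnpla2, were higher in the 22 series. The term rests on the S205A groups, the only ones that hold both kinds of library. Differences between mutations in their effects were tested as interactions in the 6 pairs of lines, and 0 of 10 members passed in each. The share of all genes that passed was not counted there, so this is no result about the members in particular.

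Across the 26 libraries, 8 of the other 9 members correlated with Adipoq. The relation was computed on log2(normalized count + 1), for 9 relations, with 100000 permutations. For Plin1, Pearson's r was 0.988 and Spearman's rho 0.990, each with a permutation p of 1e-05, the smallest these permutations can give, and 1.29e-05 after adjustment for r. For Fabp4 r was 0.975 (rho 0.960), for Lpl 0.965 (0.944), for Retn 0.963 (0.951), for Cidec 0.954 (0.939) and for Cfd 0.954 (0.912), with the same p. Lep had r 0.859 (rho 0.809) with the same p, and Pck1 0.739 (rho 0.798) with a permutation p of 3e-05 for r. Without the 2 libraries farthest from the Adipoq median, WT 3 and S205A 4, r was 0.985 for Plin1, 0.762 for Lep and 0.710 for Pck1. With each group centred on its mean, r was 0.989 for Plin1, 0.853 for Lep and 0.865 for Pck1.

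Pnpla2 followed Adipoq more closely within a library series than over all libraries, as a description with no test of the difference. Over all libraries r was 0.372 (permutation p = 0.0617) and rho 0.270 (permutation p = 0.182). Within the 22 series r was 0.729 over 9 libraries, and within the others 0.694 over 17. For Pck1 the values were 0.963 and 0.610, with Y308F 2 and Y308F 3 among the other libraries. For Plin1 they were 0.995 and 0.984.

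**Figure D4:**
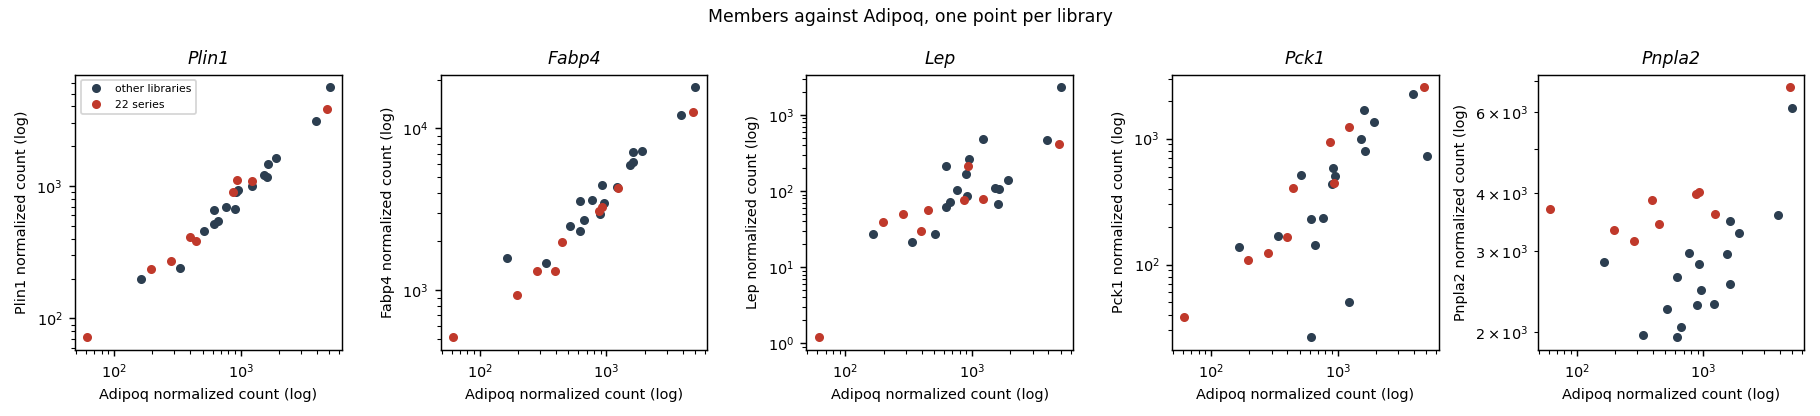
Normalized counts of Plin1, Fabp4, Lep, Pck1 and Pnpla2 against Adipoq (both axes log), 1 point per library, with the 22 series in red. Plin1 and Fabp4 follow a narrow line, 2 libraries lie far below the others for Pck1, and the Pnpla2 points of the 22 series lie mostly above the rest.

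Ratios to Adipoq show how far each member departed from the common course. Plin1 stayed between 0.715 and 1.22 of the Adipoq normalized count, a 1.70-fold range. Cidec, Retn, Cfd and Fabp4 had ranges of 3.35-, 3.42-, 3.49- and 3.63-fold, and Lpl one of 4.76-fold. The ranges were wider for Lep (23.6-fold) and Pck1 (ratios of 0.0415 to 1.08), and widest for Pnpla2 (65.2-fold), whose ratio ran from 0.921 in Y308F control 2 to 60.1 in S205A 4. The Lep ratio was highest in WT 3, at 0.463, and was 0.400 in Y308F 2 and 0.343 in Y308F 3. The last 2 are the libraries with the lowest Pck1 ratios. In S205A 4 the Lep ratio rested on 1 raw count.

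Promoter sequences are shown for Plin1, Cidec and Lep, which correlated with Adipoq and hold a C/EBP motif match, for Adipoq itself, and for Pnpla2, the member with the lowest correlation. They are the 200 bases upstream of the RefSeq start, read 5′ to 3′ on the gene's strand, from a RefSeq table on GRCm38.p6, an earlier build than the files. Capitals mark matches to TTGCNNAA, a simplified C/EBP motif, C/EBP factors being regulators of adipocyte genes. The places are chr16:23146336-23146535 (plus strand) for Adipoq, chr7:79732777-79732976 (minus) for Plin1, chr6:113434765-113434964 (minus) for Cidec, chr6:29060021-29060220 (plus) for Lep and chr7:141454988-141455187 (plus) for Pnpla2.
Adipoq: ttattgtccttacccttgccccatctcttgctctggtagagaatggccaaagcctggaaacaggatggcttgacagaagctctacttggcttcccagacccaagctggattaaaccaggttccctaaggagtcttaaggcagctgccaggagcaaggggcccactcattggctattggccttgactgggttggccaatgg
Plin1: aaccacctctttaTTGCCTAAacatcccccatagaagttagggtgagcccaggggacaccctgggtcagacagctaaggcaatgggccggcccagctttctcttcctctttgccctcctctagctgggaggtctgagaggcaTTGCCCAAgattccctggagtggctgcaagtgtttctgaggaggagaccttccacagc
Cidec: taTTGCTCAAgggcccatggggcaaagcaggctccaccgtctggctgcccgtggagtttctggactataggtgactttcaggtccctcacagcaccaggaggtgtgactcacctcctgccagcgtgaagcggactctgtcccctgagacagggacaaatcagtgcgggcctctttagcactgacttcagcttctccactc
Lep: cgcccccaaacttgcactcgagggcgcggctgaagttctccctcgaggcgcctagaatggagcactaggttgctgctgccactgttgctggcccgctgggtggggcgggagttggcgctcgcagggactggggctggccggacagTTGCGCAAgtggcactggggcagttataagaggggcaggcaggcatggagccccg
Pnpla2: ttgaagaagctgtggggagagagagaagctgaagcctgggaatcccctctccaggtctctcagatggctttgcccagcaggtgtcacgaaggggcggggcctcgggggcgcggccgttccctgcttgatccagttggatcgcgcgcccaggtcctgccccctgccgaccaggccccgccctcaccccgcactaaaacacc

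The search ran on both strands of windows from 250 bases before to 50 after the start. Of the members, 8 had a window, Cidec 2 of them, and Fabp4 and Lpl were not matched. TTGCNNAA occurred in windows of 3 members: Plin1 (first bases 187 and 58 before the start), Lep (55) and, further upstream, 1 of the Cidec windows. It occurred in 10.8% of all 32851 windows. AGGTCA followed by any base and AGGTCA, the direct repeat read by PPARG, was in 0 member windows and in 0.0396% of all windows. A match describes letters and not a bound site. The genes without a match included Adipoq, and also Retn and Cfd, whose r with Adipoq was 0.963 and 0.954.

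The 8 genes outside the members that were most like Adipoq, by Pearson's r over the 26 libraries, were Ces1d (0.980), Trf (0.980), Car3 (0.973), Cd36 (0.962), Hp (0.956), Adhfe1 (0.954), Cdo1 (0.943) and Aldh1l1 (0.941). Trf encodes transferrin, Hp haptoglobin, Car3 a carbonic anhydrase abundant in fat, and Cd36 a fatty acid transporter. With groups centred, their r ran from 0.942 for Aldh1l1 to 0.988 for Trf. Of 11009 genes compared, Adipoq and members included, 31 had an r of at least 0.9, and the median r was -0.03. None had an r of -0.8 or below.

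The wider fat cell programme, 30 genes of lipid synthesis, storage and their regulators, followed in part. Pparg, the master regulator of fat cell formation, ran from 8.44 to 641 normalized counts with a median of 72.1, and its r with Adipoq was 0.877. Of 28 programme genes compared, 14 had an r of at least 0.8, as did 68 of all 11009 genes compared. At 0.9 or more the counts were 7 of 28 and 31 of 11009. Slc2a4, the insulin-responsive glucose transporter, had an r of -0.33 and the droplet protein gene Plin4 one of 0.11, both also expressed in muscle. In the tests, 0 of 30 passed in the knockout, in S205A and in Y308F. In Y198F 3 of 30 passed, against 15% of all genes, and all 3 were higher: Dgat1, which makes triglyceride (1.31, edgeR adjusted p = 0.0150), Nr1h3, the oxysterol receptor LXR alpha (0.76, adjusted p = 0.0176), and Slc2a4 (0.57, adjusted p = 0.0243). The median log2 fold change of the 30 was -0.95, 0.96, -0.09 and -0.03 in the knockout, Y198F, S205A and Y308F.

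Receptors and protein partners of the members were read as a list of 8. In Y198F 2 of 8 passed, both higher, against 15% of all genes. Adipor1, an adiponectin receptor, rose by 0.36 (SE 0.10, edgeR adjusted p = 0.0352), and G0s2, an inhibitor of the lipase made from Pnpla2, rose by 0.70 (SE 0.21, adjusted p = 0.0457). Lepr, the leptin receptor, was at -0.37 (adjusted p = 0.0747). Adipor2 (0.33), the adiponectin-binding cadherin Cdh13 (0.17), Abhd5, the activator of that lipase (0.12), Gpihbp1, the endothelial anchor of Lpl (1.29), and Lmf1, a maturation factor of Lpl (0.15), did not pass. None of the 8 passed in the other 3 comparisons. As for all Y198F calls, genotype and library series cannot be told apart, and 0 genes passed when the controls were S205A libraries of the 22 series. Gpihbp1 had an r of 0.849 with Adipoq and Adipor2 one of 0.741.

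Markers of other cell types were summed per library. The brown and beige fat list had 11 of 12 genes detected, with a sum of 2316 to 3462 normalized counts and an r of -0.22 with Adipoq. That sum is mostly Prdm16 (median 2276, r = -0.45), and the rarer members varied. Cox8b had a median of 10.5 and an r of 0.773, and Kcnk3 a median of 151 and an r of 0.542. By contrast, r was 0.14 for Dio2 (median 152), 0.12 for Ppargc1a (median 136) and -0.005 for Cox7a1 (median 19.5). Of the 8 genes of the list tested in the knockout, 0 passed and 3 were higher, with log2 fold changes from -2.61 (Otop1) to 0.63 (Ppargc1a) and a median of -0.28. In Y198F 0 of 8 passed and 6 were higher, from -1.26 (Dio2) to 1.55 (Otop1) with a median of 0.13. Ucp1, its defining heat-producing gene, was at 0 in 23 of 26 libraries and at 2 raw counts at most, and Zic1 was at 0 in all. The macrophage sum (7 of 7 genes, 135 to 1817) had an r of 0.685 with Adipoq, the mesothelium sum (6 of 6, 1.10 to 777) 0.652 and the pancreas sum (3.30 to 103) 0.696. That last sum is mostly Cela1, since Cpa1, Ctrb1, Pnlip and Cel were each at 0 in 15 or more libraries. The smooth muscle sum (8 of 8) had an r of -0.45, the endothelium sum 0.02 and the fibroblast sum 0.13. Pecam1 (median 44419) and Vwf (22888) carry most of the endothelium sum, while its member Kdr, a growth factor receptor with a median of 359, had an r of 0.803. In WT the macrophage sum ran from 342 to 1565 and in the knockouts from 889 to 1817. It ran from 185 to 1277 in the Y198F controls and from 173 to 941 in the mutants. The part of these other cells in the members' levels was not tested.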

How the data were processed

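Bulk RNA was sequenced from mesenteric arteries in paired reads of 150 bases, per the labels. The authors aligned reads to GRCm39 with STAR 2.7.9a and counted them with featureCounts, per the submitters' processing notes. Strand setting and annotation are not given in the sources used here. The deposited counts are whole numbers per gene, not normalized. The other deposited table gives normalized signal values: counts divided by 1 size factor per library, for genes with summed counts over 50, as checked on its values. The authors' deposited comparison tables give a log2 fold change, a test score and p-values from DESeq2 1.46.0.

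Members and lists were chosen with earlier results of these data known. Each comparison was tested with edgeR 4.0.16 in R 4.3.3 (quasi-likelihood, TMM, filterByExpr, robust) on the counts of its 2 groups, with Benjamini-Hochberg adjustment over all genes tested. SE is the fold change over the root of F. Levels are on the deposited normalized scale. Genes named are the members, Pparg, Ucp1, up to 3 programme genes per direction and comparison with the smallest adjusted p past 0.05, all 8 receptors and partners, and the 8 genes most like Adipoq. Plin4 and the pancreas, endothelium, fibroblast and brown fat genes other than Ucp1 and Zic1 were named after their values were seen. Group differences of single values used exact permutation tests, and correlations used a pseudocount of 1. Coordinates and exon lengths came from GENCODE vM39 on GRCm39, which matched 56310 of 57010 identifiers. Adipoq, Cidec, Fabp4, Lpl and Pnpla2 each overlap 1 long noncoding gene on the other strand, so their values are uncertain to that extent. Depth was 14.9 to 23.6 M (mega-counts) per library. The edgeR fit was tested on simulated counts of the knockout comparison, with a smaller spread than the members had. Alternatives were DESeq2 1.42.0, its size factors in edgeR, no filter, a replicate block, all groups in one fit, the library series and each library left out.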

Additional observations from a re-analysis of the deposited data

Results flagged for a closer look

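The effects of the Panx1 knockout and of Y198F on Pnpla2 had opposite directions, -0.72 and 1.04 in log2 terms, with 3 of 3 knockout libraries below every WT library and 3 of 3 Y198F libraries above every Y198F control. Of all genes, 17% and 30.6% had groups apart in the same comparisons. The difference between them was -1.76 (SE 0.50, unadjusted p = 0.00579, adjusted p = 0.0501 in an edgeR interaction test over 17347 genes), which fails the correction. Y198F minus Y308F gave 1.35 (edgeR adjusted p = 0.0522) and Y198F minus S205A 1.22 (adjusted p = 0.192). In each of these the Y198F effect shares its genotype with the library series, and these cannot be told apart. Among 20 tests for a single outlying library in the S205A groups, on normalized counts without logs, 0 were past the limit. The log scale was not tested, and the result can depend on it.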

How the results depend on the processing

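Over 50 member fold changes (4 comparisons and the series), 573 of 620 values under an alternative kept their direction and their side of the threshold, 41 reversed, 6 newly passed (Pnpla2 in Y198F) and 0 lost a call; 25 fold changes reversed at least once. The cause was not tested. With 1 library left out, the log2 fold changes that reversed ran from -2.22 to 0.049 (Adipoq), -1.78 to 0.027 (Fabp4) and -1.83 to 0.34 (Retn) in the knockout. In Y198F they ran from -0.52 to 1.77 (Adipoq), -0.27 to 1.72 (Plin1), -0.095 to 2.18 (Cidec), -1.42 to 0.60 (Lep), -0.45 to 1.38 (Fabp4), -0.35 to 1.24 (Retn) and -0.64 to 1.24 (Lpl). In S205A they ran from -1.19 to 0.15 (Adipoq), -0.81 to 0.34 (Fabp4), -0.90 to 0.079 (Cfd), -0.56 to 0.077 (Lpl) and -0.90 to 1.20 (Pck1). In Y308F they ran from -1.11 to 0.56 (Adipoq), -1.03 to 0.57 (Plin1), -1.43 to 0.0027 (Cidec), -0.18 to 2.02 (Lep), -0.99 to 0.30 (Fabp4) and -1.08 to 0.56 (Lpl). Between the series they ran from -1.65 to 0.16 (Adipoq), -0.999 to 0.16 (Plin1), -0.17 to 0.83 (Lep) and -2.80 to 0.11 (Pck1). Members past the threshold numbered 0 to 1 in Y198F and 0 to 1 among the 8 groups, where 1 passed without WT 3, Y198F 1 or S205A 1. All genes past it numbered 1 to 5 in the knockout, 908 to 2128 in Y198F, 0 to 1 in S205A, 0 to 1 in Y308F, 814 to 2618 among the groups and 282 to 2404 between the series.

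Replicate numbers did not pair the samples: the deviations of same-numbered libraries correlated at -0.28 to 0.23. With the replicate block, all genes past the threshold numbered 18 in the knockout. There 7 of 10 members had an unadjusted p under 0.05 (11.6% of all genes), against 0 without it (11.2% of all genes), and 0 passed. In Y198F 1 member (Pnpla2, 0.97) passed with the block, where 26.9% of all genes had an unadjusted p under 0.05. The share of all genes past the threshold is not given here for that fit. Lep in Y198F (-0.30), Pck1 in S205A (0.44), and Adipoq (0.16), Plin1 (0.055) and Lpl (0.0036) in Y308F reversed with the block.

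Under other settings, all genes past the threshold numbered 117 (DESeq2) and 243 (no filter) in the knockout against 5, and 922 (all 8 groups in one fit), 0 (series as a term) and 0 (S205A controls of the 22 series) in Y198F against 2411. They numbered 47 with DESeq2 in S205A against 0, where 451 genes had an unadjusted p under 0.05. They numbered 7 without a filter in Y308F against 0, where 706 had an unadjusted p under 0.05 and DESeq2 called 0. Among the groups they numbered 2932 (DESeq2 likelihood ratio test, with 2 members) and 8 (series as a term) against 1328, and between the series 902 in the S205A groups alone against 2189. In Y198F 1 member passed with DESeq2 (14.3% of all genes), with all groups in one fit (922 of 18715 genes) and without a filter. The share of all genes without a filter is not given here. With the series as a term Lep in Y198F was at -0.48 and Pck1 in S205A at 0.56. Within the 22 series the S205A values were 0.19 (Adipoq), 0.30 (Fabp4), 0.0053 (Lpl) and 1.23 (Pck1). The correlation of Pnpla2 with Adipoq was 0.372 over all libraries, 0.564 with groups centred, 0.729 in the 22 series and 0.694 in the others. Depth limits only Lep in S205A 4, with 1 raw count.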
